A study of Mus musculus with 2 samples.

Results

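Rab GTPases are small membrane switches of the Ras superfamily, and the 59 mouse genes described here are those whose symbol is Rab followed by a number and at most 1 letter and 1 further digit. They were 59 of the 55536 annotated genes in the deposited tables, and all were annotated as protein-coding, a class of 22028 genes. The samples were 2 libraries of total RNA depleted of ribosomal RNA, from the nuclear fraction of C57BL/6J bone marrow-derived macrophages. Both cultures had received Lipid A, the membrane anchor of bacterial lipopolysaccharide and a ligand of Toll-like receptor 4, at 100 ng/ml for 10 minutes. The labels name no genetic change, report sex and age as not collected, and give both biosamples the same donor identifier, so the spread between the libraries may be technical. Replicate 1 was made from 1 µg of RNA and replicate 2 from 500 ng. No unstimulated sample or other fraction was analysed here. The values are thus levels in the nuclear fraction of stimulated cells and show no response to Lipid A. The labels call the fraction nucleoplasmic in 1 field and nuclear in others.

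A Rab protein is made soluble, receives lipid anchors on cysteines at its C terminus, and cycles between a GDP-bound form held in the cytosol and a GTP-bound form on a membrane. Guanine nucleotide exchange factors (GEFs) load GTP, GTPase-activating proteins (GAPs) trigger its hydrolysis, and GDP dissociation inhibitors extract the inactive protein from the membrane. The GTP-bound form recruits effectors such as tethers, motors and lipid kinases, so each Rab helps to give its compartment an identity. Macrophages rely on this system to mature phagosomes, to deliver Toll-like receptors to the surface and to endosomes, and to secrete cytokines. RNA in the nucleus reports on transcripts before export and says nothing of protein amounts. The fraction also held mitochondrially encoded RNA, which is made outside the nucleus. Without those genes the family share of protein-coding TPM was 0.309% instead of 0.246%. How much of each member's level was exported RNA was not tested.

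The libraries held 19153465 (replicate 1) and 11622346 (replicate 2) expected counts on annotated genes. The cell label was checked against marker genes: 7 of 7 macrophage markers were present at or above 1 TPM in each library (TPM is the abundance of a transcript per length, scaled to the same total in every library, so levels can be compared between genes), with a summed level of 3493 and 2166 TPM. Of the neutrophil markers 1 of 6 did so, with summed levels of 5.42 and 4.28 TPM. None of the B cell, T cell, melanocyte, epithelial, neuronal or fibroblast markers did in the gene table, and no such list summed to more than 1.01 TPM there. By a second deposited quantification of the same reads, 1 T cell marker (Cd3d, 2.53 and 10.1 TPM) and 1 melanocyte marker (Dct, 1.12 and 1.23 TPM) reached 1 TPM. All 7 macrophage markers did so as well.

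The family was broadly present. With detection set at a level of at least 1 TPM in each library, 40 of the 59 Rab genes (67.8%) were detected, against 46% of all protein-coding genes. A total of 24 members reached 10 TPM in both libraries, 18 stayed under 1 TPM in both, and Rab33a passed 1 TPM in replicate 2 alone. The family summed to 779 TPM in the first replicate and 706.5 TPM in the other, or 0.246% ± 0.00873 (SD, n = 2) of the TPM of all protein-coding genes. The median member stood at 7.58 TPM, against 0.608 TPM for the median protein-coding gene; among detected genes the medians were 13.1 TPM for members and 10.5 TPM for all. In a bulk sample, a lower level cannot be told apart from fewer cells that hold the transcript.

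A complete coding model was found in the GENCODE M21 transcripts for each of the 59 members, and the longest was read for each. The predicted proteins had a median of 215 residues, with a range of 194 to 973, and the longest was that of Rab44, a large Rab with added domains. In 49 members the switch II region, which changes shape when GTP is hydrolysed, held the unbroken run aspartate, threonine, alanine, glycine, glutamine, glutamate. The other 10 differed within that run, and 7 of them were detected here, against 33 of the 49 with the run. The lines that follow give the 7 codons from the preceding tryptophan onward, 5′ to 3′, for the 5 most abundant members and for detected members that differ. Capitals mark codons for a residue other than that of the common run, since these are the positions at which the catalytic loop of the family varies.
Rab14: tgggatacagcagggcaggag
Rab7: tgggacacagccggtcaagaa
Rab1a: tgggacacagcaggccaggaa
Rab8b: tgggacacggcgggccaggaa
Rab7b: tgggacacaGGTggtcaggag
Rab24: tgggacacagcaggtTCCgag
Rab20: tgggacaccgcagggCGGgag
Rab29: tgggatATTgcagggcaggag
Rab32: tgggatATCgcgggacaggaa
Rab28: tgggatATAGGAgggcagACA
Rab40c: tgggacacaTCGggccagGGA

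The C terminus carries the cysteines that receive geranylgeranyl lipids, and 50 members had 2 cysteines among the last 5 residues while 9 had 1. The most frequent ending, a cysteine, any residue and a cysteine, was found in 20 members, of which 10 were detected. The ending of 2 adjacent cysteines was found in 15 members, of which 13 were detected, and a lone cysteine 4th from the end in 9, of which 7 were detected. Of the members with 2 adjacent cysteines 1, 2 or 3 residues before the end, 3 of 3, 4 of 6 and 3 of 6 were detected. Over all members the share detected was 67.8%, and nothing is read from these small counts. The last 9 codons of 5 abundant members with different endings are given here, with the cysteine codons in capitals.
Rab14: caaccccagagagaaggcTGTggcTGC
Rab1a: gtcaagcagtcaggtggaggcTGCTGC
Rab8b: accagtttcttccgcTGTtctctgctt
Rab24: ccttacttctacagcTGTTGTcatcac
Rab11a: ccaaaggtgcagTGCTGTcagaacatc

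A few members carried much of the family's RNA. The 5 highest held 37.3% of the family TPM in replicate 1 and 41.9% in replicate 2, and the 10 highest held 57.7% and 59.3%. The 5 were Rab14, Rab7, Rab1a, Rab8b and Rab7b, so the early endosome, the late endosome, the ER to Golgi route and the exocytic route each had a member near the top. Across the 40 detected members the SD over the 2 libraries was 0.634% to 32.8% of the mean, with a median of 13.3%. Of the 39 neighbouring pairs in the ranking, 9 had library values that did not overlap and 30 had values that did. With 2 values per gene, a lack of overlap does not by itself settle the order of a pair. The library values separated each step from Rab14 through Rab7, Rab1a and Rab8b to Rab7b, and most steps below that were not separated. Rab1a and Rab8b lay within 1 TPM of each other in replicate 1, and their deposited intervals overlapped in both libraries.

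**Figure D1:**
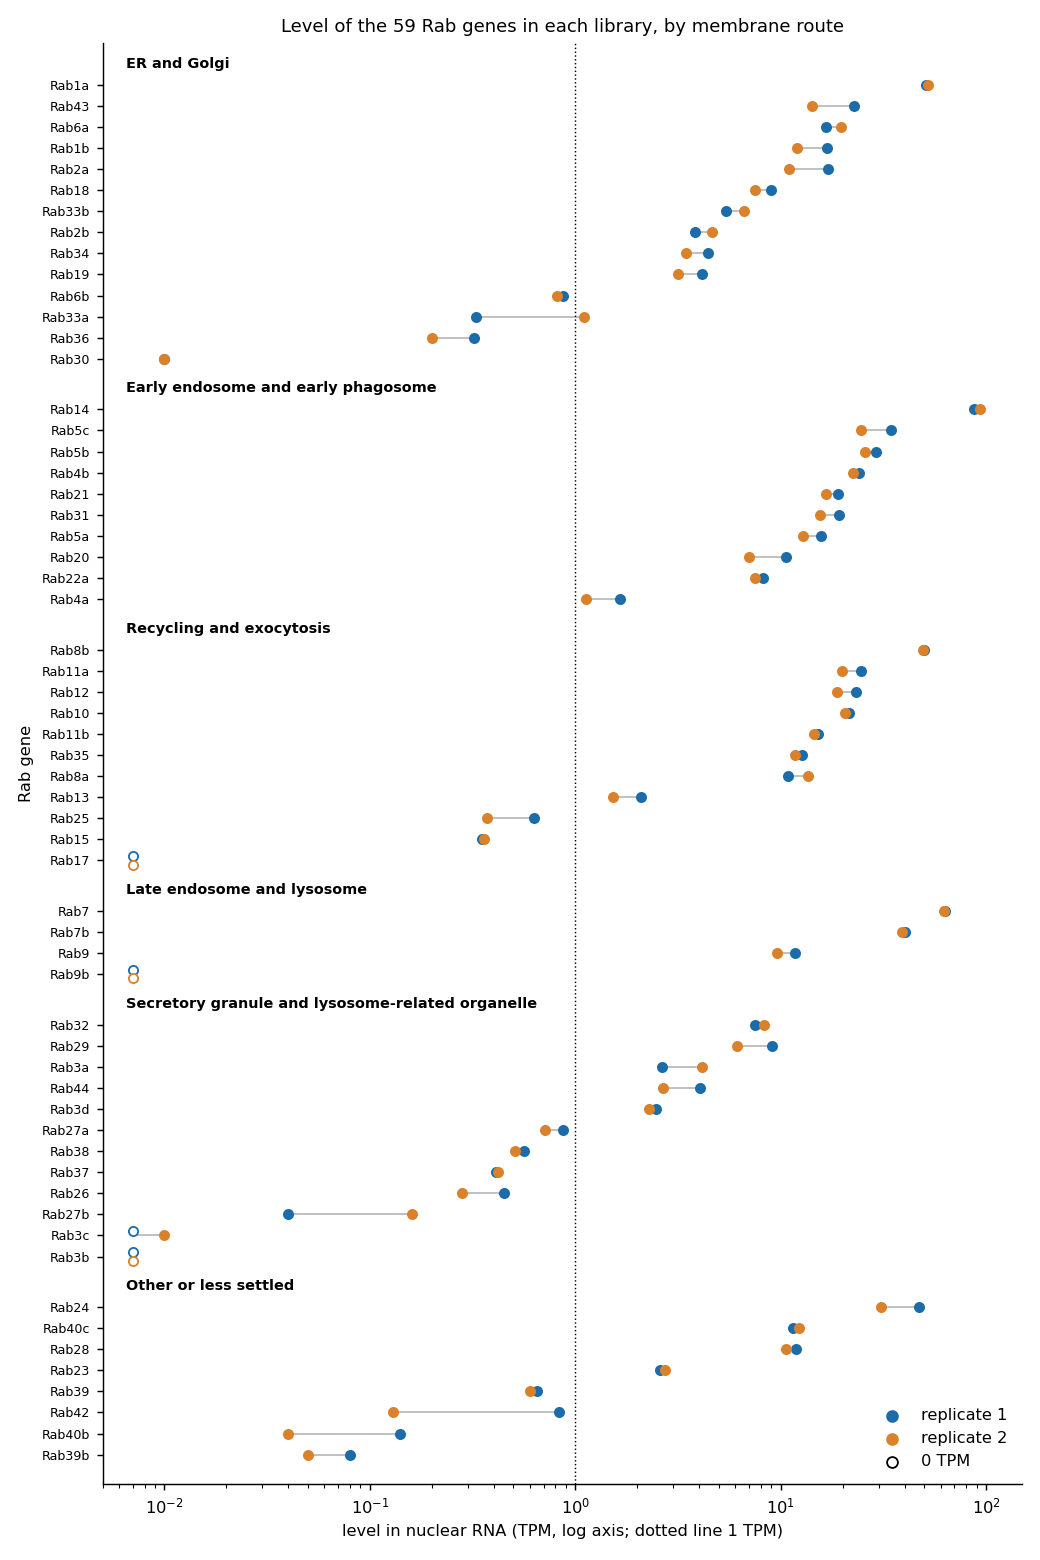
Level of each of the 59 Rab genes in nuclear RNA (TPM, log axis), grouped by the membrane route each is best known for, with 1 point per library joined by a line; open points at the left edge stand for 0 TPM and the dotted line for 1 TPM. Rab14 lies farthest right at 86.8 and 93.1 TPM, all 10 early endosome members lie right of the dotted line in both libraries, and Rab17, Rab9b and Rab3b sit at 0.

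Rabs of the early endosome and early phagosome took the greatest share of the family, 237 ± 15.8 TPM (SD, n = 2) or 32.0% of its TPM, and all 10 of them were detected. Rab14, which works between the trans-Golgi network and endosomes and is recruited to phagosomes, lies at chr2:35180205-35201120 (mm10, minus strand) and had 86.8 TPM in replicate 1 and 93.1 TPM in replicate 2. It stood above 98.3% of protein-coding genes, and its libraries did not overlap those of any other member. The Rab5 isoforms, which recruit EEA1 and the class III phosphatidylinositol kinase to early endosomes, were all well detected.
Rab5c had 34.3 and 24.5 TPM in replicates 1 and 2, Rab5b had 29.2 and 25.7 TPM, and Rab5a had 15.8 and 12.8 TPM. Rab5c and Rab5b overlapped, and both exceeded Rab5a in each library. Rab4b, of the rapid recycling route, had 24.0 and 22.5 TPM.
Rab21, which acts in integrin uptake, had 19.0 and 16.6 TPM, and Rab31, a Rab22 relative of the trans-Golgi network and phagosomes, had 19.3 and 15.6 TPM. Rab20, linked to phagosome maturation in macrophages, had 10.6 and 7.03 TPM, and Rab22a had 8.20 and 7.48 TPM. Rab4a was the lowest detected member of the family at 1.65 and 1.13 TPM.

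Rabs of recycling and exocytosis summed to 156 ± 7.33 TPM (SD, n = 2), 20.98% of the family, with 8 of 11 detected. Rab8b, which acts in exocytosis and on phagosomes and autophagosomes, lies at chr9:66843664-66919687 (mm10, minus strand) and had 49.96 and 49.35 TPM in replicates 1 and 2. It also ranked 2nd in the family by expected counts, behind Rab14 alone. Rab11a, the main Rab of the recycling endosome, had 24.6 and 19.9 TPM, and its relative Rab11b had 15.1 and 14.6 TPM.
Rab10, which carries Toll-like receptor 4 and other cargo to the surface, had 21.4 and 20.5 TPM, and Rab12, of the route from recycling endosomes to lysosomes, had 23.2 and 18.8 TPM. These values overlapped with each other and with Rab11a. Rab35, of the endocytic recycling pathway, had 12.7 and 11.7 TPM, and Rab8a had 10.8 and 13.5 TPM.
Rab13, known from epithelial junctions, was low at 2.08 and 1.52 TPM. The epithelial Rab25 (0.630 and 0.370 TPM) and the neuronal Rab15 (0.350 and 0.360 TPM) stayed under 1 TPM. Rab17, another epithelial Rab, had no count in either library. In the gene table, 3 counts per library would be 0.150 and 0.229 TPM, while the deposited intervals for Rab17 reach 0.664 and 0.970 TPM.

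Late endosome and lysosome Rabs numbered 4 and summed to 113 ± 2.86 TPM (SD, n = 2), 15.2% of the family, with 3 detected. Rab7, which drives late endosome and lysosome fusion and transport, lies at chr6:87999106-88045270 (mm10, minus strand) and had 62.7 and 62.2 TPM in replicates 1 and 2. Rab7b, which lowers Toll-like receptor signalling by sending receptors to lysosomes, lies at chr1:131688695-131715439 (mm10, plus strand) and had 40.4 and 39.1 TPM. Both libraries gave nearly the same value for each gene, and Rab7 exceeded Rab7b in both.
Rab9, which returns mannose 6-phosphate receptors from late endosomes to the Golgi, had 11.7 and 9.58 TPM. Its relative Rab9b had no count in either library of the gene table, where 3 counts would be 0.0355 and 0.0551 TPM, but was at 0.548 and 1.09 TPM in the second deposited quantification.

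ER and Golgi Rabs summed to 144 ± 11.1 TPM (SD, n = 2), 19.4% of the family, with 10 of 14 detected. Rab1a, required for transport from the ER to the Golgi, lies at chr11:20201432-20226856 (mm10, plus strand) and had 50.6 and 52.1 TPM in replicates 1 and 2. Rab1b had 16.75 and 12.02 TPM, and Rab2a, which acts between Golgi and ER and in lysosome fusion, had 17.0 and 11.0 TPM. Rab1a was thus above both in each library, while Rab1b and Rab2a overlapped.
Rab6a, of retrograde Golgi traffic, had 16.6 and 19.7 TPM, and Rab43, another Golgi Rab, had 22.8 and 14.2 TPM. Rab18, of the ER and lipid droplets, had 8.94 and 7.50 TPM, and Rab33b, a Golgi Rab that binds the autophagy protein Atg16l1, had 5.43 and 6.61 TPM. Rab2b (3.84 and 4.60 TPM), Rab34 (4.40 and 3.45 TPM) and Rab19 (4.12 and 3.15 TPM) were detected at low levels and overlapped.
Rab6b (0.870 and 0.810 TPM), best known from neurons, and Rab36 (0.320 and 0.200 TPM) stayed under 1 TPM. Rab30, with 3 counts in replicate 1 and 1 in replicate 2, was at 0.010 TPM in both. Rab33a had 0.330 and 1.10 TPM, from 7 and 15 counts.

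Rabs of secretory granules and lysosome-related organelles took the smallest share, 26.8 ± 1.75 TPM (SD, n = 2) or 3.60% of the family, with 5 of 12 detected. Rab32, which serves melanosomes and host defence at bacteria-containing vacuoles, had 7.45 and 8.24 TPM, and Rab29, a partner of the kinase Lrrk2, had 9.07 and 6.09 TPM. Rab3a (2.63 and 4.14 TPM) and Rab3d (2.46 and 2.29 TPM), both of regulated exocytosis, and Rab44 (4.06 and 2.68 TPM) made up the rest of those detected.
Rab27a, which docks lysosome-related organelles, stayed under 1 TPM at 0.870 and 0.710 TPM, as did Rab38, a melanosome Rab, at 0.560 and 0.510 TPM. Rab37 (0.410 and 0.420 TPM), Rab26 (0.450 and 0.280 TPM) and Rab27b (0.040 and 0.160 TPM) were lower still. Rab3c had 0 counts in replicate 1 and 1 in replicate 2, and Rab3b had none in either. For Rab3b, 3 counts would be 0.107 and 0.165 TPM in the gene table, but its deposited intervals reach 0.748 and 1.08 TPM and the second quantification gave 1.18 and 2.08 TPM.

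The 8 members without a settled route summed to 65.8 ± 12.5 TPM (SD, n = 2), 8.83% of the family, and 4 were detected. Rab24, linked to autophagy, lies at chr13:55319743-55321946 (mm10, minus strand) and had 47.0 TPM in replicate 1 and 30.6 TPM in replicate 2. This was one of the wider gaps in TPM among abundant members. Its counts scaled for library size differed less, by 0.23 on the log2 scale, and the second quantification gave 17.8 TPM in each library. Rab40c, which recruits a ubiquitin ligase through a SOCS box, had 11.5 and 12.2 TPM, and Rab28, of cilia and photoreceptors, had 11.9 and 10.6 TPM. Rab23, an antagonist of Hedgehog signalling, was low at 2.59 and 2.73 TPM.
Rab39 (0.650 and 0.600 TPM), Rab42 (0.830 and 0.130 TPM), Rab40b (0.140 and 0.040 TPM) and Rab39b (0.080 and 0.050 TPM) were not detected. Rab42 rested on 10 counts in replicate 1 and 1 count in replicate 2.

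Some close relatives differed widely in level. The predicted proteins formed 18 pairs in which each member was the other's closest match, and in 8 pairs both members were detected, in 7 only 1, and in 3 neither. In the gene table the library values of the members did not overlap in 17 of the 18 pairs, the exception being Rab37 and Rab26. The same count was not made for less related pairs, so nothing particular to close relatives is read from it. By the second quantification, a comparison added after seeing the data, 15 pairs were separate in the same order, and Rab37 with Rab26, Rab3a with Rab3c and Rab27a with Rab27b overlapped with the order of their means turned. Rab6a and Rab6b shared 90.9% of residues, and the mean level of Rab6a was 21.6-fold that of Rab6b. Rab4b was 16.7-fold above Rab4a at 84.9% identity, and Rab8b was 4.09-fold above Rab8a at 83.6% identity. Smaller gaps separated Rab1a from Rab1b (3.57-fold, 90.7% identity), Rab2a from Rab2b (3.31-fold, 84.8%), Rab5b from Rab5a (1.92-fold, 81.9%) and Rab11a from Rab11b (1.496-fold, 89.9%). By the second quantification the gap was 2.78-fold for Rab11a over Rab11b, 1.96-fold for Rab2a over Rab2b and 2.57-fold for Rab8b over Rab8a. Among less similar pairs, Rab32 was 14.7-fold above Rab38 and Rab40c was far above Rab40b, whose mean of 0.090 TPM came from 5 counts and 1 count.

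**Figure D2:**
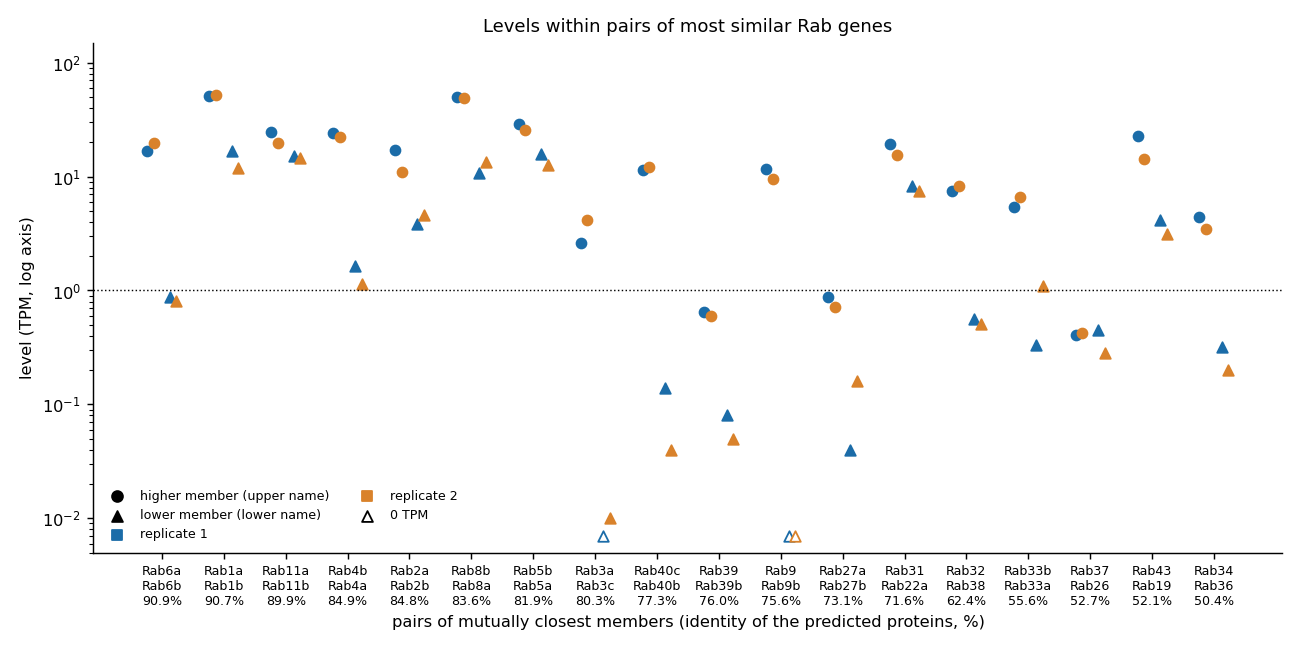
Level (TPM, log axis) of both members of the 18 mutually closest pairs, ordered by the identity of their predicted proteins; circles stand for the member with the higher mean, triangles for the other, colours for the library and open triangles for 0 TPM. Values are those of the gene table: circles and triangles are separate in 17 pairs, the gap does not shrink steadily with identity, and Rab37 with Rab26 is the pair that overlaps.

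Promoter sequences (250 bases before to 50 bases after the start, RefSeq, GRCm38.p6) were matched for 48 members. The 35 detected members held a median of 25 CG dinucleotides in this window and the 13 that were not detected held 11. Over protein-coding genes the medians were 21 for the 8085 detected and 5 for the 8437 not detected, where the detected genes again had the higher median. At least 10 CG dinucleotides were present in 94.3% of detected and 61.5% of undetected members, against 85.5% and 35.3% of protein-coding genes. The motif CCGGAAG, searched on both strands, was present in at least 1 window of 4 of the 35 detected members (11.4%). The same held for 23.0% of all detected protein-coding genes. The motif CACGTG was present in at least 1 window of 5 of the 35 (14.3%) and of 12.4% of those genes. Averaged over a member's windows, detected members ranged from 9 to 43 CG and undetected members from 5 to 42. Rab17 was the lowest of the undetected members, and Rab9b, also without a count in the gene table, held 17. The windows of the highest member and of Rab17, which had no count, are given with each CG in capitals. The Rab14 window, chr2:35201071-35201370 on the minus strand, holds 27 CG, and the Rab17 window, chr1:90967618-90967917 on the minus strand, holds 5.
Rab14: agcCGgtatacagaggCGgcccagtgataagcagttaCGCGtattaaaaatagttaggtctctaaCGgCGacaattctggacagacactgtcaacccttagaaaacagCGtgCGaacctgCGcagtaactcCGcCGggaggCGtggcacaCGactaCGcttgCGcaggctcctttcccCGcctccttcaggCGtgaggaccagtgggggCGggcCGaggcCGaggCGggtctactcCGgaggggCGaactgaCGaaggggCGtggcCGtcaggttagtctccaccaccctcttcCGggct
Rab17: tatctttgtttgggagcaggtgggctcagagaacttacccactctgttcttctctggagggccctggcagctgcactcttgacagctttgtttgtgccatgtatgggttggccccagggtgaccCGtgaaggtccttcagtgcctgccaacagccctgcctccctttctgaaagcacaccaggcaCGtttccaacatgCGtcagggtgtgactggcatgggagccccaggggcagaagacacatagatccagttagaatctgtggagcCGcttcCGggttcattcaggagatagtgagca

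The members are annotated with several transcript models each, and models that GENCODE does not class as protein-coding held 22.5% ± 2.54 (SD, n = 2) of the TPM of the 40 detected members. Over all 10123 detected protein-coding genes the same share was 27.6% ± 0.675. Within the family, retained-intron models made up 17.7%, processed transcripts 4.10% and nonsense-mediated decay models 0.674%. The median member had 10.3% of its level on such models, against 29.6% for the median detected protein-coding gene. A non-coding model was annotated for 29 of the 40 members and for 8343 of the 10123 genes. Among those alone the medians were nearer, at 29.8% and 37.0%. More than 50% of the level lay on such models in 5 of 40 members (12.5%), against 25.8% of genes. Retained-intron models contain intron sequence, and the tables give no separate value for unspliced RNA. By the second quantification non-coding models held 31.6% of the TPM of the detected members. The share over all genes was not taken by it, so whether the family lay below that share there is not known.

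Rab14 set much of this share. Its coding transcript Rab14-201 had 28.9 and 30.5 TPM in replicates 1 and 2, while the retained-intron models Rab14-210 (16.7 and 19.8 TPM), Rab14-202 (10.8 and 10.4 TPM) and Rab14-209 (8.70 and 9.81 TPM) followed. All its non-coding models together held 62.8% ± 2.28 (SD, n = 2) of the gene's level. On coding models alone Rab14 had 33.7 and 33.1 TPM, below the 62.7 and 62.2 TPM of Rab7, the 49.96 and 49.35 TPM of Rab8b and the 40.4 and 39.1 TPM of Rab7b. Rab1a, at 33.8 and 37.4 TPM on coding models, also stood above Rab14, narrowly so in replicate 1. The rank of Rab14 as the highest member therefore held for the gene total and not for its coding models. Without Rab14, an alternative added after seeing the data, the family's non-coding share was 16.8%.

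Of the other members, 4 had most of their level on non-coding models: Rab23 (77.9%), Rab44 (77.9%), Rab4b (72.3%) and Rab8a (54.8%). Rab4b-205, a retained-intron model, had 10.8 and 10.2 TPM in replicates 1 and 2, above the 6.72 and 6.15 TPM of the coding Rab4b-201. Rab8a-202, also a retained-intron model, had 5.33 and 8.12 TPM against 5.45 and 5.38 TPM for the coding Rab8a-201, and these overlapped. Rab6a-204, a retained-intron model of 567 bases, had 3.99 and 8.22 TPM and overlapped the coding Rab6a-201 at 7.36 and 4.16 TPM. In 35 of the 40 detected members the highest transcript was a coding one.
In Rab1a the second class was processed transcripts, as it also was in Rab11a and Rab11b: Rab1a-205 had 7.82 and 9.93 TPM beside 32.8 and 37.4 TPM of the coding Rab1a-206. In Rab40c processed transcripts were second in replicate 1, at 2.34 TPM against 7.38 TPM on coding models. They were first in replicate 2, at 5.59 TPM against 5.19 TPM. In Rab5b the retained-intron model Rab5b-202 had 8.64 and 7.68 TPM beside 20.53 and 17.98 TPM of Rab5b-201, and in Rab24 the model Rab24-205 had 6.33 and 7.69 TPM beside 24.96 and 16.96 TPM of Rab24-201. In 14 detected members all TPM lay on coding models in both libraries, among them Rab7, Rab8b and Rab7b, and for 11 of the 14 no other class was annotated. Rab7b had a non-coding model annotated that received nothing, and its level was split between Rab7b-202 (23.6 and 21.4 TPM) and Rab7b-201 (15.5 and 17.2 TPM).

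**Figure D3:**
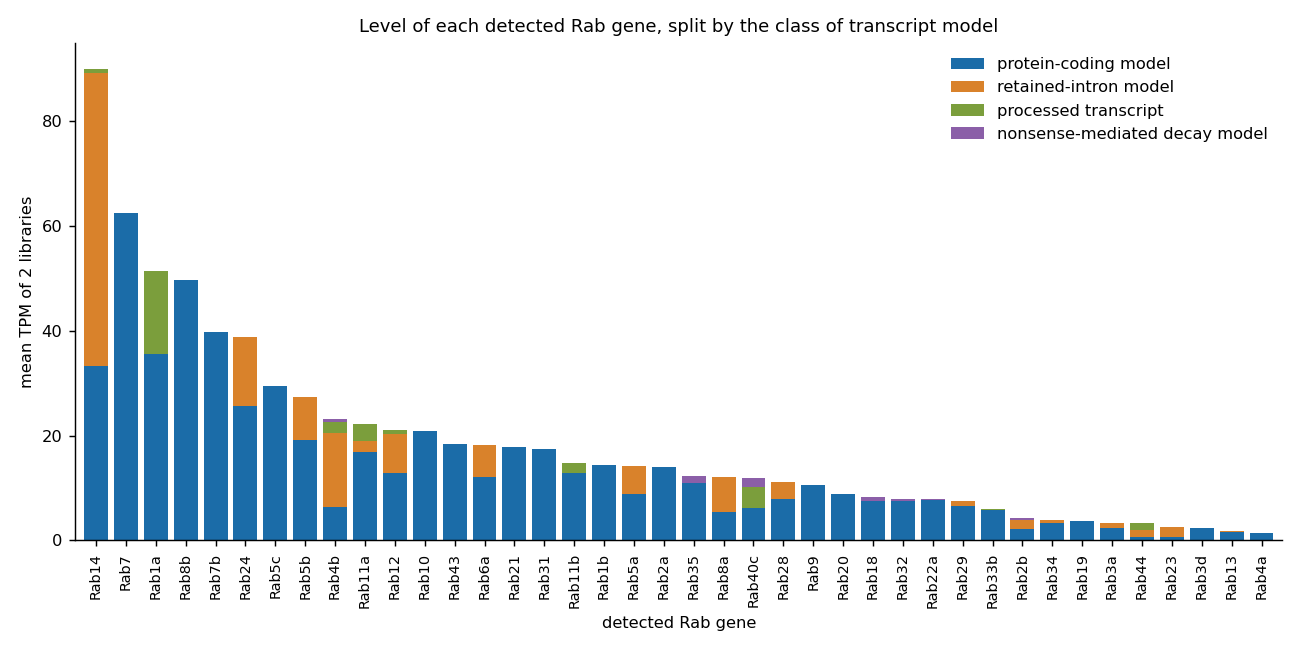
Mean level over the 2 libraries (TPM, linear axis from 0) of the 40 detected Rab genes, stacked by the class of the transcript models. Rab14 is the tallest bar and mostly retained-intron, with 62.8% of its level on non-coding models, whereas Rab7, Rab8b and Rab7b are wholly coding.

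The libraries gave similar values for the family. Counts were scaled by TMM and compared for genes with a mean of at least 50 counts. This kept 39 members and 11656 genes of all annotated classes. No member was more than 2-fold apart between replicate 1 and replicate 2, against 2.09% of all genes. With a share that small, finding none among 39 members is not read as a trait of the family. The median log2 difference, replicate 1 minus replicate 2, was 0.025 for members and -0.0012 for all genes, with 22 members above the median gene and 17 below. Rab34 was farthest up at 0.92, outside the 5th to 95th percentile range of all genes (-0.46 to 0.64), followed by Rab43 at 0.54 and Rab2a at 0.51. Farthest down were Rab3a at -0.54 and Rab23 at -0.46, both below that range, and Rab33b at -0.33. Rab34 rested on 109 and 34 counts, and its TPM, which is also divided by an effective length that the tables give for each library, differed less (4.40 and 3.45 TPM). With 1 library on each side, these differences carry no test.

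**Figure D4:**
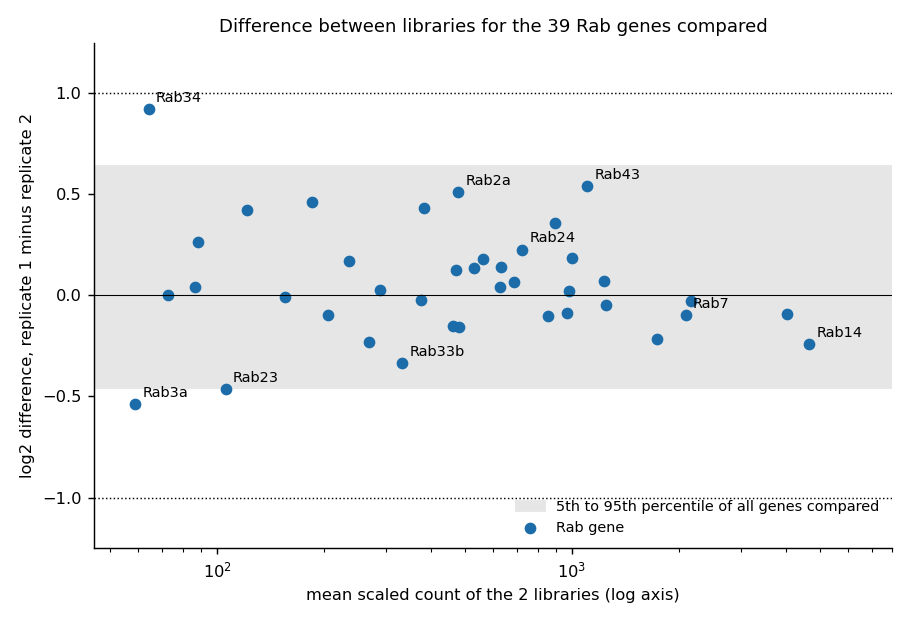
Log2 difference between the libraries (replicate 1 minus replicate 2) against the mean scaled count (log axis) for the 39 Rab genes compared; the grey band spans the 5th to 95th percentile of all genes and the dotted lines mark 2-fold. All points lie inside the dotted lines, and Rab34 at 0.92, Rab3a at -0.54 and, narrowly, Rab23 at -0.46 lie outside the band.

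A second deposited quantification of the same reads shared most of the highest members and moved others. Rab9 went from rank 25 to 12, Rab18 from 27 to 13 and Rab34 from 33 to 21. Of the 59 genes, 42 were detected by it and 40 by both, and 9 of the 10 highest were shared. Rab7b became the highest member, at 52.4 TPM in replicate 1 and 67.5 TPM in replicate 2, above Rab14 at 41.7 and 62.0 TPM and Rab7 at 41.0 and 47.3 TPM. The late endosome and lysosome Rabs accordingly held 21.4% of the family instead of 15.2%, and the early endosome Rabs 27.2% instead of 32.0%.
The comparison took genes of all annotated classes with a mean of 5 TPM or more in either quantification. Protein-coding genes were not compared apart. Among the genes taken, 2 of 32 members were more than 2-fold apart, against 25.3% of 10981 genes. These were Rab34, which was higher in the second quantification by 1.23 on the log2 scale with a pseudocount of 0.1 TPM (9.50 and 9.15 TPM), and Rab24, which was lower with a log2 difference of -1.12 (17.8 TPM in each library). Next above were Rab18 at 0.71 and Rab7b at 0.59, and next below were Rab8b at -0.99 and Rab20 at -0.97. The median member was lower in the second quantification by a log2 difference of -0.55 and the median gene by -0.37. When the comparison was centred on the median gene, a choice made after seeing the data, the 2 members were Rab34 and Rab18, against 24.3% of genes.
The count depended on the library. In replicate 2 alone 1 of 32 members (Rab34) was over 2-fold apart, and in replicate 1 alone 13 of 32 were, against 25.4% and 43.7% of genes. The median gene was shifted by -0.68 in replicate 1 and -0.08 in replicate 2. The 10 highest genes took 70.5% of the TPM of the second quantification in replicate 1 and 55.7% in replicate 2, against 49.4% and 46.9% in the gene table. The part of this in the members' differences was not tested. After centring within each library, 3 members were over 2-fold apart in each: Rab7b, Rab34 and Rab18 in replicate 1, and Rab34, Rab18 and Rab9 in replicate 2.
Some members near 0 in the gene table received reads in the second quantification. Rab3c stood at 1.40 and 4.15 TPM there, Rab3b at 1.18 and 2.08 TPM, and Rab9b at 0.548 and 1.09 TPM. Rab17 stayed near 0 in both, at 0 and 0.065 TPM in the second quantification.

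**Figure D5:**
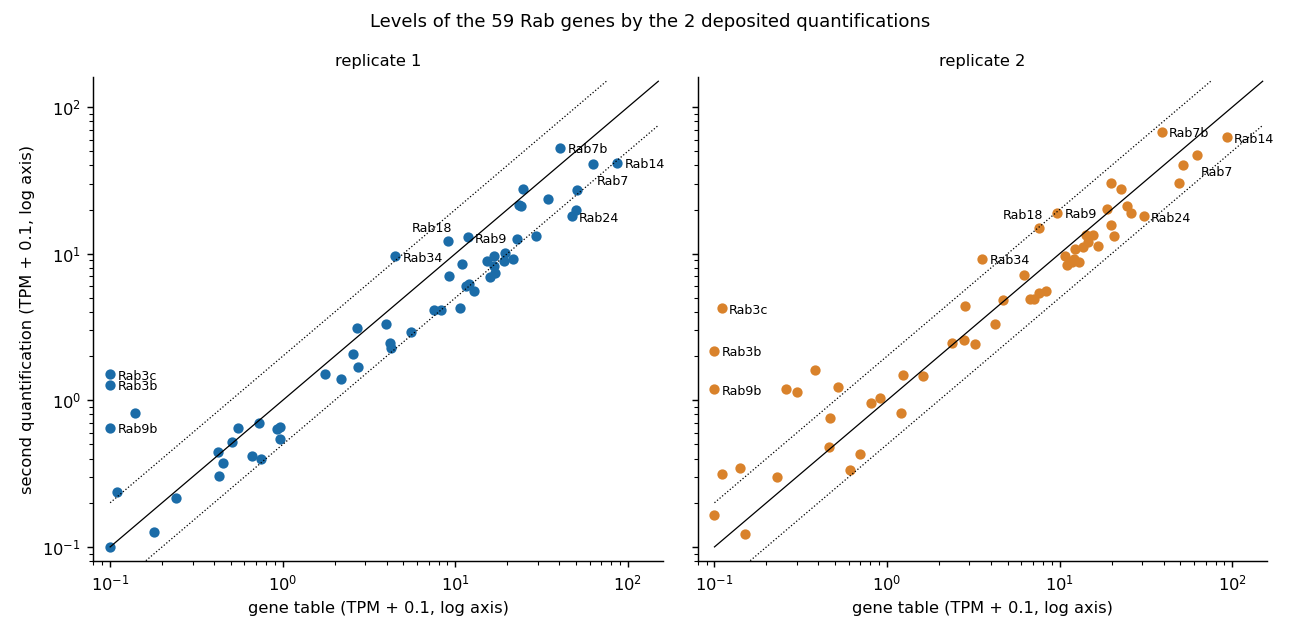
Level of the 59 Rab genes in the second quantification against the gene table (TPM + 0.1, both axes log), for replicate 1 on the left and replicate 2 on the right; the solid line marks equal values and the dotted lines 2-fold. Most members lie below the solid line in replicate 1 and nearer to it in replicate 2, while Rab3c, Rab3b and Rab9b lie far above it at the left edge.

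Sequence shared with other genes limits some members. The share of a member's 31-base words (either strand) that also occur in transcripts of another gene was above 50% for 4 members. Rab43 shared 74.8% with Gm45140, a coding gene model on the same strand at 1.08 and 0.820 TPM, and Rab4b shared 59.2% with Gm21983, likewise on the same strand, at 0 and 0.270 TPM. Rab24 shared 54.4% with Prelid1, which overlaps it on the opposite strand at 17.9 and 19.4 TPM, and Rab2b shared 56.4% with Gm43766 on the opposite strand at 0.660 and 1.08 TPM. Levels of these 4 are uncertain, and strand handling is not given in the sources used here. Rab14 shared 1.02% and Rab7b 0.021%, while Rab7 shared 18.4%, mainly with the pseudogene Rab7-ps1. A total of 21 members had an annotated gene overlapping on the opposite strand and 17 on the same strand; Rab7 holds Gm44187 (21.6 and 14.9 TPM) on its own strand, and Rab20 faces E230013L22Rik (11.6 and 3.25 TPM). With the 4 members left out, an alternative added after seeing the data, the family share was 0.218% and the median member 6.02 TPM.

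The genes that control the Rab cycle were also widely present: 110 of 127 listed genes matched in the tables were detected, against 46% of protein-coding genes. Of 36 GEF genes 32 were detected, with a median of 12.5 TPM. Dennd1a, a GEF of Rab35, had 105 and 94.1 TPM in replicates 1 and 2, Gapvd1, a GEF of Rab5, had 75.7 and 86.0 TPM, and Dennd4c, a GEF of Rab10, had 65.3 and 79.5 TPM. Dennd3, a GEF of Rab12, was the lowest at 0.190 and 0.270 TPM, while Rab12 itself stood near 21 TPM.
Of 37 GAP genes 34 were detected, with a median of 17.6 TPM. Rab3gap2, the non-catalytic subunit of a complex that acts on Rab3 and Rab18, had 54.1 and 70.5 TPM, Tbc1d23, a Golgi adaptor of this family, had 54.5 and 56.2 TPM, and Tbc1d4, a GAP of Rab10, had 51.7 and 56.2 TPM. Sgsm1 was listed at 0 TPM in both libraries.
All 7 genes of lipid attachment and membrane extraction were detected. Gdi2, a GDP dissociation inhibitor, had 101 and 81.7 TPM in replicates 1 and 2. Rabggtb, the catalytic subunit of Rab geranylgeranyl transferase, had 17.1 and 16.7 TPM, and the escort protein gene Chml was lowest at 2.78 and 2.70 TPM.
Of the 47 genes on the effector list 37 were detected, with a median of 8.91 TPM. Whether each listed gene, Plin2 among them, acts as a Rab effector was not examined here. Appl2, an adaptor on early endosomes that binds Rab5, had the highest mean, with 211 and 264 TPM, and overlapped Plin2, a lipid droplet coat protein, at 217 and 168 TPM; next was Zfyve26, an endolysosomal protein, at 57.7 and 59.1 TPM. The lowest were Sytl2, Sytl5, Myrip and Rph3al, effectors of Rab27 and Rab3 in secretion, all listed at 0 TPM in both libraries of the gene table. By the second quantification they reached at most 0.286 TPM, for Sytl2 in replicate 2. These were 4 of the 47 listed effectors, named as the lowest, and nothing about Rab27 or Rab3 is read from them.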

How the data were processed

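Nuclear-fraction total RNA-seq of 2 libraries in 1 group was analysed. The authors deposited, for each library, gene and transcript tables with expected counts and TPM, made from transcriptome alignments to mm10 with GENCODE M21 per the deposited text files, and a second transcript table made from the reads with estimated counts and TPM. The programs and strand settings are not given in the sources used here. TPM as deposited is per effective length and scaled over all entries of a table; the deposited posterior mean TPM and the bounds of its interval, a signal in TPM units, were read as well. Members, lists and alternatives were chosen with earlier results of these data known.

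Expected counts were rounded for scaling by TMM (edgeR 4.0.16) with DESeq2 1.42.0 size factors as an alternative, and log2 differences used a pseudocount of 1. The second table was summed per gene. Detection meant 1 TPM or more in both libraries. With 1 group no test was possible, so means ± SD (n = 2) and counts past 2-fold are descriptions. The SD holds all variation between the 2 library preparations, while limits given as 3 counts cover counting error only. Entries that name no gene (1.18% and 0.405% of counts) were left out. The difference calculation was checked on simulated data. Every member may be named; of each regulator list the 3 highest and the lowest were named, of members the highest coding and non-coding transcripts, and of each comparison the members past 2-fold and the 3 farthest each way. A result that this rule names is not reported here. Proteins were predicted from GENCODE M21 coding sequence (Biopython 1.88) and aligned over their whole length.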

Additional observations from a re-analysis of the deposited data

How the results depend on the processing

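The number of detected members was 31 to 51 and that of regulator genes 86 to 111 over all alternatives, within 1.5 times the reported 40 and 110. The family share of 0.246% was 0.266% by the second quantification, 0.277% by expected counts, 0.309% without mitochondrially encoded genes and 0.218% without the 4 members that share most of their sequence (0.240% to 0.252% with a library left out). The median member of 7.58 TPM was 4.64 TPM by the second quantification, 13.1 TPM over detected members and 6.02 TPM without those 4 (6.61 to 7.45 TPM with a library left out). Non-coding models held 31.6% by the second quantification, 17.0% by expected counts and 16.8% without Rab14 (20.7% to 24.3% with a library left out). Members over 2-fold apart between libraries numbered 1 of 48 (Rab33a) with a minimum of 10 counts, against 5.21% of genes. With no minimum they were 5 of 56, against 17.8%, and by the second quantification 2 of 48 (Rab37, Rab3c), against 5.98%. Scaling and pseudocount left 0 of 39, against 1.90% to 2.14% of genes. Between quantifications the count was 5 of 43 from 1 TPM, against 34.9% of genes. With a library left out it was 1 to 13 of 32, against 25.4% to 43.7% of genes. By the second quantification the routes summed to 111 (ER and Golgi), 154 (early endosome), 115 (recycling), 121 (late endosome) and 38.6 TPM (unsettled); 40 members were lower by it and 19 higher. No paired analysis was possible because there is 1 group. Leaving out a library gave these ranges in TPM: ER and Golgi 136 to 152, early endosome 226 to 249, recycling 151 to 161, late endosome 111 to 115, granule 25.5 to 28.0, unsettled 57.0 to 74.7. Depth limits members under 1 TPM, most of which rest on fewer than 50 counts.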

Other observations

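Genes related to the family but outside the symbol rule were present as well. Rabl6, a Rab-like GTPase, had 35.2 and 26.7 TPM in replicates 1 and 2, Rabl3 had 4.32 and 3.19 TPM and Rabl2 had 3.60 and 3.83 TPM. The Rab-like subunits of intraflagellar transport, Ift22 and Ift27, had 8.90 and 5.91 TPM and 1.41 and 1.84 TPM. Ran, the GTPase of nuclear import and export, had 7.66 and 5.66 TPM. Rasef was listed at 0 TPM in both. Of the Rab pseudogenes, Rab7-ps1 had 0.410 and 0.190 TPM and Rab11b-ps2 had 0.440 TPM in each library, while both were listed at 0 by the second quantification.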
